A study of Mus musculus with 8 samples.

Results

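Transcript signals of 9 genes of pericellular proteolysis were compared in mouse mammary tumors in which Mmp14, a membrane-anchored matrix metalloproteinase, had been targeted. The genes are the plasminogen activators Plau and Plat, the receptor Plaur, the serpins Serpinb2 and Serpinb5, the secreted serine proteases Htra1 and Prss23, and the membrane serine proteases Fap and St14. They, and the lists of related genes and cell type markers used below, were chosen by name with earlier results of these data known. All 9 genes were found among the 22180 genes with 1 symbol in the array annotation. The series holds 8 whole tumors from MMTV-PyMT mice, which carry polyoma middle T antigen under the mouse mammary tumor virus promoter, all of the congenic FVB/NJ strain and aged 3 to 4 months. Of these, 4 tumors came from conditional knockout mice with an MMTV-Cre transgene and both Mmp14 alleles floxed (cKO), and 4 from littermates with the same floxed alleles, the same tumor transgene and no Cre (WT). The groups therefore differ in Cre as well as in Mmp14, the MMTV promoter limits Cre mainly to mammary epithelium, and the RNA came from intact inguinal and thoracic tumors that also hold stroma, vessels and immune cells.

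Urokinase (Plau) and tissue-type plasminogen activator (Plat) each cut plasminogen into plasmin, a broad serine protease that degrades fibrin and several matrix proteins and activates some latent metalloproteinases. Urokinase acts at the cell surface when bound to its receptor Plaur, and serpins such as Serpinb2 (PAI-2) inhibit both activators. St14 (matriptase) and Fap are anchored in the membrane, the first a protease of epithelial surfaces and the second a peptidase and gelatinase best known from activated fibroblasts of tumor stroma.

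The targeted gene was read first as a check of the labels. Mmp14 gave log2 signals of 8.86, 9.12, 9.31 and 9.17 in WT tumors 1 to 4 and of 7.98, 7.74, 7.44 and 7.72 in cKO tumors 1 to 4. All cKO tumors lay below all WT tumors, and Mmp14 fell by 1.40 on the log2 scale (SE 0.13, limma adjusted p 0.0444). When single tumors were left out, limma's adjusted p of Mmp14 ranged from 0.0429 to 0.211, and the call held only without cKO 1 or without cKO 3. The call was also lost with the array set (arrays 1 to 4 or 5 to 8) as a block, at a limma adjusted p of 0.0708. With the replicate number as a block it was lost too, at 0.353. The arrays are numbered in the labels, and the split after array 4 was set here. In both groups the lower replicate numbers were on arrays 1 to 4, so array and replicate effects cannot be told apart. The array medians ran from 3.64 to 3.71 and any pair of arrays correlated with r of 0.976 to 0.989. Luminal epithelial markers were bright in every tumor, with a mean log2 signal over 10 markers of 9.14 to 9.49 in WT and 8.77 to 9.17 in cKO.

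None of the 9 genes differed between the groups past the threshold of an adjusted p of 0.05 (limma, adjusted over all 23521 rows), a threshold that 0.00850% of all rows passed. Without adjustment, 1 of the 9 had a limma p below 0.05, Prss23, against 9.68% of all rows and 4.14% with a lower cKO mean. Prss23 was also the only one of the 9 whose groups did not overlap, against 5.42% of all rows and 1.73% in the downward direction. The mean was lower in cKO for 8 of the 9, against 43.5% of all rows, and the median difference of the 9 was −0.22 on the log2 scale, against 0.023 for all rows. These genes share the same 8 tumors, are not independent of each other and were chosen with earlier results of these data known. Within the 9, cKO 3 held the lowest value for 5 genes, while WT 1 lay above the gene's own mean for all 9. Without cKO 3 the median difference was −0.16.

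**Figure D1:**
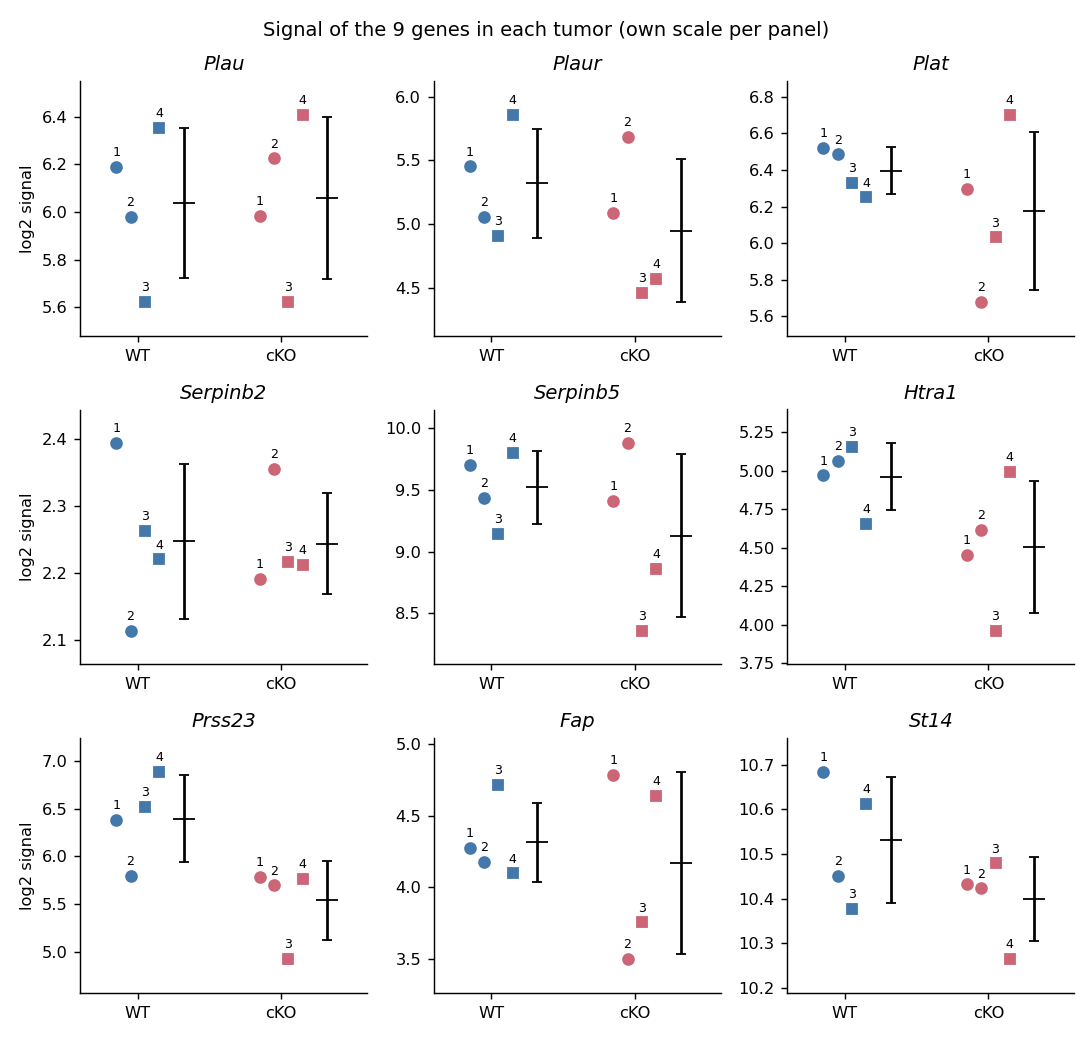
Log2 signal (vertical axis, own scale per panel) of the 9 genes in WT (blue) and cKO (red) tumors; numbers are replicate numbers, circles arrays 1 to 4, squares arrays 5 to 8, and black bars the mean ± SD of 4 tumors. Only for Prss23 do all 4 cKO tumors lie below all 4 WT tumors, and cKO 3 is lowest in 5 panels.

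Plau, the urokinase protease itself, did not differ detectably. Its log2 signals were 6.19, 5.98, 5.62 and 6.35 in WT tumors 1 to 4 and 5.98, 6.22, 5.62 and 6.41 in cKO tumors 1 to 4. The groups overlapped across nearly their whole range, with a low and a high tumor in each. The difference was 0.023 on the log2 scale (SE 0.20, 95% confidence interval −0.43 to 0.47, limma adjusted p 0.983), and it ran from −0.11 without WT 3 to 0.17 without cKO 3. A change to below 74.4% or above 139% of the WT signal lies outside the interval over all tumors.

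Plaur, which holds urokinase at the surface through a lipid anchor, gave 5.45, 5.06, 4.91 and 5.86 in WT tumors and 5.08, 5.68, 4.46 and 4.57 in cKO tumors. The 2 lowest tumors were cKO 3 and cKO 4, while cKO 2 was exceeded only by WT 4. The difference of −0.37 (SE 0.29, 95% confidence interval −1.04 to 0.29) did not pass (limma adjusted p 0.721). It moved from −0.62 without cKO 2 to −0.19 without WT 4.

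Plat, an activator that vessels and other stromal cells make, was even across WT tumors, at 6.52, 6.49, 6.33 and 6.25. The cKO tumors lay on both sides of them, at 6.30, 5.68, 6.03 and 6.70. The SD was 0.13 in WT and 0.43 in cKO (n = 4 per group), and cKO 4 was the highest of the 8 tumors. The difference was −0.22 (SE 0.19, limma adjusted p 0.758), and it was −0.39 without cKO 4 and −0.052 without cKO 2.

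Serpinb2, an inhibitor of both activators, gave 2.39, 2.11, 2.26 and 2.22 in WT and 2.19, 2.35, 2.22 and 2.21 in cKO, in every tumor below the array median. No detection call was at hand, so its difference of −0.0036 (SE 0.086, limma adjusted p 0.994) is one of signals and says little of RNA. A further row that the annotation assigns jointly to Serpinb10 and Serpinb2 was not used.

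Serpinb5 (maspin), a clade B serpin of mammary epithelium that does not act as a classical inhibitor, was bright in all tumors. It gave 9.70, 9.44, 9.14 and 9.80 in WT and 9.41, 9.88, 8.36 and 8.86 in cKO. As with Plaur, cKO 3 and cKO 4 were the 2 lowest and cKO 2 was high, here the highest of all. The difference was −0.39 (SE 0.30, 95% confidence interval −1.07 to 0.29, limma adjusted p 0.709), with an SD of 0.29 in WT and 0.66 in cKO. It was −0.64 without cKO 2 and −0.14 without cKO 3.

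Plaur and Serpinb5 varied together from tumor to tumor. Over the 8 tumors Pearson's r was 0.94 (exact permutation p 2.7e-04, adjusted p 0.0098 over the 36 pairs among the 9 genes) and Spearman's rho 0.95 (exact permutation p 0.0011, adjusted p 0.041). Without WT 4 and cKO 3, the tumors farthest from the median of Plaur, r was 0.99, and after the group means were removed it was 0.93. With any 1 tumor left out r lay between 0.93 and 0.96, and its adjusted exact p between 0.018 and 0.114, at or above 0.05 without WT 1, cKO 2 or WT 4. It was the only pair of the 36 to pass. The order of the tumors was nearly the same in both genes, with WT 4, cKO 2 and WT 1 at the top and cKO 4 and cKO 3 at the bottom, and tumors of both groups stood among the highest and among the lower ones. Plat and Fap, both genes of stroma, came next with r = 0.75 (exact permutation p 0.031, adjusted p 0.555; rho 0.62, exact permutation p 0.115, adjusted p 0.819), and r was 0.40 without cKO 2 and cKO 4. Within arrays 1 to 4 and 5 to 8 there were 4 tumors each, too few for a correlation.

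The sequences before the start sites of Plaur and Serpinb5 are shown because these genes moved together. They are the 250 bases before 1 annotated transcript start of each gene (RefSeq, GRCm38.p6, plus strand), at chr7:24462233-24462482 for Plaur, within the annotated span of the gene, and at chr1:106860925-106861174 for Serpinb5, directly before it. Capitals mark matches, on either strand, to 3 motifs: the AP-1 site TGACTCA, the GC box GGGCGG and the TATA box TATAAA.
Plaur: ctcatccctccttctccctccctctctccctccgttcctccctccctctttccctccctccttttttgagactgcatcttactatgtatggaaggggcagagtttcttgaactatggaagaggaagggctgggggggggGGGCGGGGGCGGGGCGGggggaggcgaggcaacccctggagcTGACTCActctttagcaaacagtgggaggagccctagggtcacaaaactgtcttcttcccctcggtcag
Serpinb5: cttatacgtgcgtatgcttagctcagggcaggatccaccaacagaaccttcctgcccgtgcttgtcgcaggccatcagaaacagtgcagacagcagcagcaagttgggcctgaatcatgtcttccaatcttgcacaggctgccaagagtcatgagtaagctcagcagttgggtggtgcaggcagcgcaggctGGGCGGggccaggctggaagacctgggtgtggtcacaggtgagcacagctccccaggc
The Plaur window held 1 AP-1 match, 69 bases before the start, and 3 adjoining or overlapping GC boxes, the farthest 111 bases and the nearest 100 bases before it. The Serpinb5 window held 1 GC box, 58 bases before the start, and no AP-1 match. Neither held TATAAA. Of 32851 windows of this length in the same table, 4.46% held the AP-1 letters, 32.7% the GC box and 12.4% the TATA box. Among the other genes with a window, Prss23 had 7, of which 2 overlapping ones held an AP-1 match and 4 others held GC boxes. Of these 4, 1 held 1 GC box, and the other 3 overlapped and held the same 3 boxes. Serpinb2 held TATAAA in both of its windows, which overlap, and Htra1 had 1 GC box. A match describes the letters and is not a bound site.

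**Figure D2:**
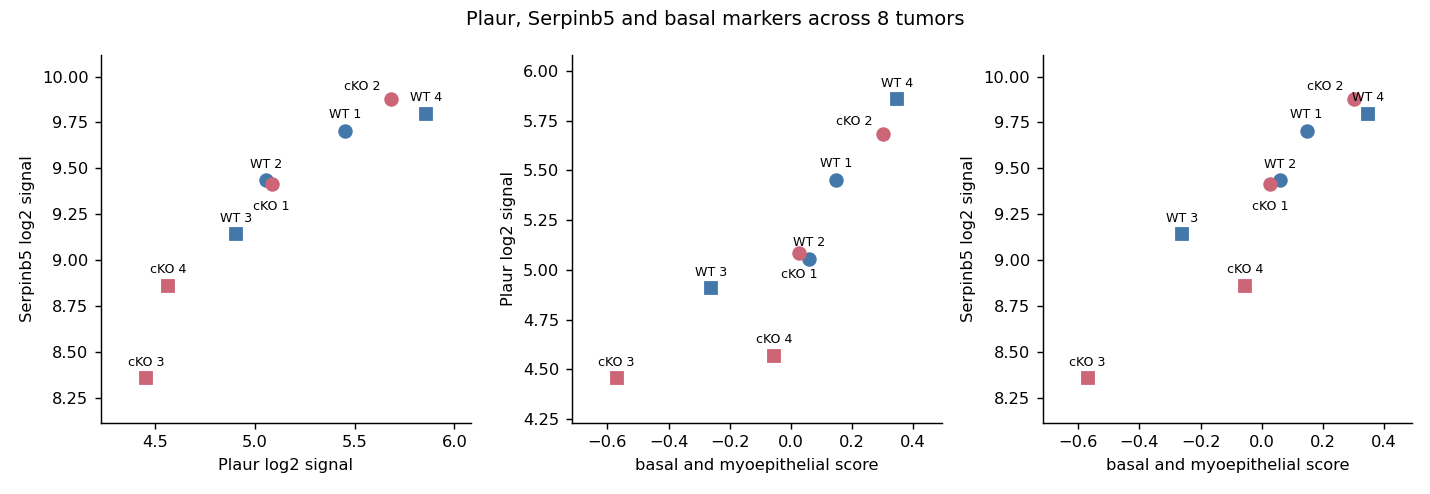
Left, log2 signal of Serpinb5 against that of Plaur in the 8 tumors (r = 0.94). Middle and right, each gene against the basal and myoepithelial marker score (mean log2 deviation of 7 markers); WT blue, cKO red, circles arrays 1 to 4, squares arrays 5 to 8. The tumors fall in nearly the same order in all 3 panels, with cKO 3 lowest on every axis.

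Htra1, a secreted protease that cleaves fibronectin and proteoglycans among other matrix substrates, gave 4.97, 5.06, 5.16 and 4.65 in WT and 4.45, 4.62, 3.96 and 4.99 in cKO. Of the cKO tumors, 3 lay below every WT tumor, and cKO 4 lay among the WT tumors. The difference was −0.45 (SE 0.21, 95% confidence interval −0.92 to 0.011), or 73.0% of the WT signal, and did not pass (limma adjusted p 0.528, unadjusted p 0.0544, exact permutation p 0.0857). It was −0.62 without cKO 4 and −0.27 without cKO 3. Its size was alike on both sets of arrays, −0.48 in arrays 1 to 4 and −0.43 in arrays 5 to 8. The mean signal of Htra1, 4.73, was under the mean of 5 used as a filter.

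Prss23, a secreted serine protease of the trypsin-like family, showed the largest difference of the 9. It gave 6.38, 5.79, 6.52 and 6.89 in WT tumors 1 to 4 and 5.78, 5.69, 4.92 and 5.77 in cKO tumors 1 to 4. All 4 cKO tumors lay below all 4 WT tumors, though the lowest WT tumor, WT 2, and the highest cKO tumor, cKO 1, were almost level. The difference was −0.85 (SE 0.26, 95% confidence interval −1.44 to −0.27), or 55.4% of the WT signal (36.9% to 83.0%). Limma gave an unadjusted p of 0.0092 and an adjusted p of 0.352, and an exact permutation of the tumors gave p = 0.0286, which is the lowest value possible with 4 tumors per group and is not adjusted for the 9 genes. The difference was −0.35 in arrays 1 to 4 and −1.36 in arrays 5 to 8, which did not differ past the threshold (limma interaction, adjusted p 0.656, unadjusted p 0.0519).

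A second array row of Prss23 gave a smaller difference. Its signals were 5.20, 4.77, 5.72 and 5.72 in WT and 4.995, 5.02, 4.47 and 4.72 in cKO. Here the groups overlapped, since WT 2 lay below cKO 1 and cKO 2. The difference was −0.55 (SE 0.22, limma adjusted p 0.487, exact permutation p 0.114), at 0.025 in arrays 1 to 4 and −1.12 in arrays 5 to 8. Both rows thus had a lower cKO mean, and on both the difference was larger among arrays 5 to 8. Leaving out cKO 3, the lowest tumor on both, changed the difference of the first row to −0.65.

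**Figure D3:**
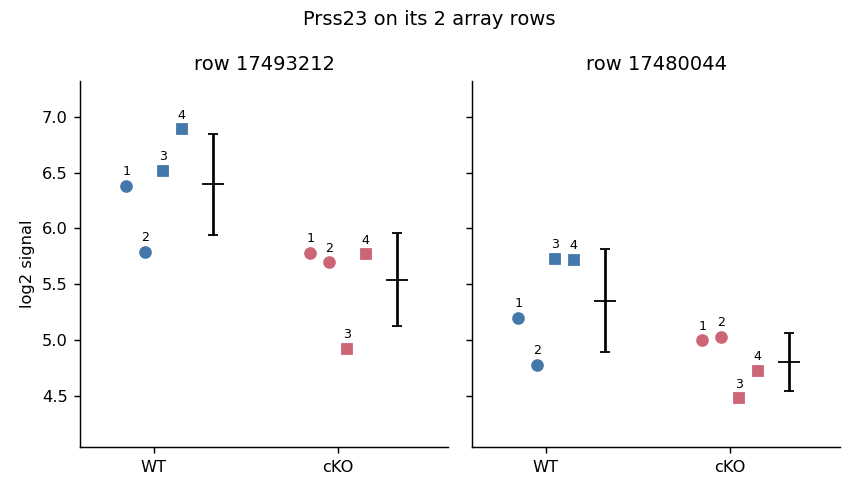
Log2 signal of Prss23 on its 2 array rows in WT (blue) and cKO (red) tumors; numbers are replicate numbers, circles arrays 1 to 4, squares arrays 5 to 8, and black bars mean ± SD of 4 tumors. On the first row the groups do not overlap, on the second WT 2 lies below cKO 1 and cKO 2.

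Fap gave 4.28, 4.18, 4.72 and 4.10 in WT and 4.79, 3.50, 3.76 and 4.64 in cKO. The cKO tumors split, with 2 below every WT tumor, cKO 1 above every WT tumor and cKO 4 above all but WT 3. The difference was −0.15 (SE 0.29, 95% confidence interval −0.80 to 0.51, limma adjusted p 0.905). Its direction turned with 1 tumor, from −0.35 without cKO 1 to 0.078 without cKO 2. The SD was 0.28 in WT and 0.64 in cKO. Fap was dim, with a mean of 4.24, under the mean of 5 used as a filter, and cKO 2 lay below every array median.

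St14, the epithelial matriptase that activates growth factors and other proteases, was the steadiest of the bright genes, within 0.42 on the log2 scale over all tumors. It gave 10.68, 10.45, 10.38 and 10.61 in WT and 10.43, 10.42, 10.48 and 10.26 in cKO. Neither group lay apart, and the difference was −0.13 (SE 0.095, limma adjusted p 0.688). The interval of −0.35 to 0.083 places the cKO signal between 78.7% and 106% of that in WT.

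**Figure D4:**
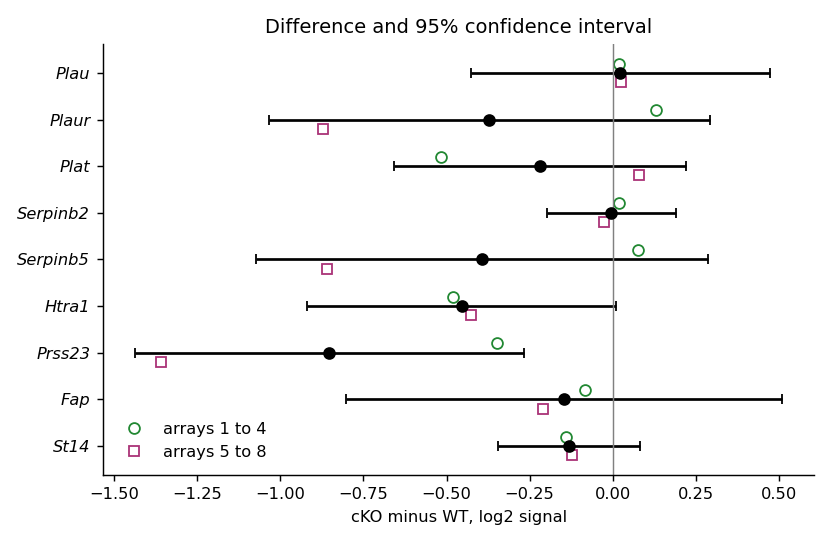
Difference in log2 signal, cKO minus WT (horizontal axis), of the 9 genes over 8 tumors (black, with 95% confidence interval from limma) and within arrays 1 to 4 (green circles) and 5 to 8 (purple squares), with 2 tumors per group each. The interval of Prss23 ends at −0.27 and the others include 0.

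For some of the genes the estimated difference was not the same in arrays 1 to 4 and 5 to 8, with 2 tumors per group in each set. Plaur differed by 0.13 in arrays 1 to 4 and by −0.87 in arrays 5 to 8, and Serpinb5 by 0.075 and −0.86. Plat went the other way, with −0.52 and 0.078. None of these gaps passed in limma's interaction test, with adjusted p of 0.675 for Plaur, 0.656 for Serpinb5 and 0.745 for Plat, and unadjusted p of 0.0698, 0.0491 and 0.154. In Plau, Htra1, Prss23, Fap and St14 both sets of arrays gave differences of the same sign. The labels do not say what the array number stands for.

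Each gene was then set beside marker scores of 7 cell types, as whole tumors differ in their makeup and, in such samples, fewer cells of a type and less RNA per cell cannot be told apart. A score is the mean over markers of a tumor's log2 signal minus the marker's mean over the 8 tumors. Of the 63 pairs, none passed an adjusted exact permutation p of 0.05 with Pearson's r, where 12 had an unadjusted p below 0.05, and 3 passed with Spearman's rho.

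The 3 pairs joined Serpinb5 and Plaur with the basal and myoepithelial markers and Plat with the endothelial markers. Serpinb5 and the basal score had r = 0.94 (exact permutation p 0.0013, adjusted p 0.065) and rho = 0.95 (exact permutation p 0.0011, adjusted p 0.036), and r = 0.97 without cKO 3 and cKO 4. Plaur and the basal score had r = 0.88 (exact permutation p 0.0031, adjusted p 0.065) and rho = 0.95 (exact permutation p 0.0011, adjusted p 0.036), and r = 0.80 without WT 4 and cKO 3. Plat and the endothelial score had r = 0.87 (exact permutation p 0.0043, adjusted p 0.068) and rho = 0.93 (exact permutation p 0.0022, adjusted p 0.047), and r = 0.93 without cKO 2 and cKO 4. The basal score, from 7 measured markers of which Krt14 and Krt17 are keratins of that layer, ran from −0.26 to 0.35 in WT and from −0.57 to 0.30 in cKO. Its other markers were Trp63, Acta2, Myh11, Cnn1 and Oxtr, so it is not a score of keratins alone. Plau had r = 0.79 with the basal score (exact permutation p 0.016, adjusted p 0.123; rho 0.62, exact permutation p 0.115, adjusted p 0.724). This r was 0.26 without WT 3 and cKO 3, the tumors farthest from the median of Plau. It was 0.68 without cKO 3 alone and 0.84 with group means removed.

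Plaur and Serpinb5 were also higher in tumors with a higher luminal score, with r = 0.86 for Plaur (exact permutation p 0.0070, adjusted p 0.089; rho 0.74, exact permutation p 0.046, adjusted p 0.412) and r = 0.80 for Serpinb5 (exact permutation p 0.018, adjusted p 0.123; rho 0.60, exact permutation p 0.132, adjusted p 0.758). These were r = 0.70 without WT 4 and cKO 3 for Plaur and r = 0.43 without cKO 3 and cKO 4 for Serpinb5. Plat had r = 0.74 with the fibroblast score (exact permutation p 0.038, adjusted p 0.202; rho 0.88, exact permutation p 0.0072, adjusted p 0.114), and r = 0.91 without cKO 2 and cKO 4.

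Htra1 and Fap are described beside the fibroblast and endothelial scores, and Prss23 and St14 beside the luminal score. Htra1 and the fibroblast score had r = 0.91 (exact permutation p 0.0024, adjusted p 0.065; rho 0.83, exact permutation p 0.015, adjusted p 0.194) and r = 0.85 without cKO 1 and cKO 3. With the endothelial score Htra1 had r = 0.81 (exact permutation p 0.013, adjusted p 0.123; rho 0.71, exact permutation p 0.058, adjusted p 0.454), and r = 0.89 without the same tumors. All 11 measured fibroblast markers had lower cKO means, against 43.5% of all rows, and none passed. Of these, 5 had an unadjusted limma p below 0.05, against 4.14% of all rows in that direction, and Pdgfra and Col1a1 stood at −0.71 and −1.36. The fibroblast score was 0.52, 0.67, 0.46 and 0.066 in WT tumors 1 to 4 and 0.054, −0.64, −1.72 and 0.60 in cKO tumors 1 to 4. Like Htra1, it was lowest in cKO 3 and within the WT range in cKO 4. Fap, itself a fibroblast gene, had its highest r with the endothelial score, at 0.81 (exact permutation p 0.019, adjusted p 0.123; rho 0.64, exact permutation p 0.096, adjusted p 0.673), and r = 0.80 without cKO 1 and cKO 2. With the fibroblast score Fap had r = 0.67 (exact permutation p 0.065, adjusted p 0.302; rho 0.40, exact permutation p 0.327, adjusted p 0.818), and r = 0.76 without the same tumors. Prss23 had r = 0.79 with the luminal score (exact permutation p 0.020, adjusted p 0.123; rho 0.81, exact permutation p 0.022, adjusted p 0.229), r = 0.53 without WT 4 and cKO 3, and r = 0.57 with group means removed. St14 had r = 0.74 with the luminal score (exact permutation p 0.036, adjusted p 0.202; rho 0.52, exact permutation p 0.197, adjusted p 0.818), and r = 0.52 without WT 1 and cKO 4.

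Most macrophage markers went the other way from those of fibroblasts. Of 10 markers, 8 had a higher cKO mean and none passed, but 7 had an unadjusted limma p below 0.05, all higher, against 5.54% of all rows in that direction. In 4 of the 10 all cKO tumors lay above all WT tumors, against 3.68% of all rows. Ms4a7, named after its values were seen, stood at 1.01 (SE 0.22, limma adjusted p 0.200), and Adgre1 and Csf1r at 0.68 and 0.29. The 2 markers with a lower cKO mean were Mertk at −0.72 (SE 0.33, limma adjusted p 0.541) and Mrc1 at −0.40 (SE 0.34). The macrophage score ran from −0.39 to 0.082 in WT and from 0.012 to 0.37 in cKO, and its r with the 9 genes lay between −0.50 for Prss23 and 0.26 for Fap.

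Of 10 luminal markers 9 had a lower cKO mean, against 43.5% of all rows. An unadjusted limma p below 0.05 was found for 2, both lower, against 4.14% of all rows in that direction. These 2, named after their values were seen, were Krt19 at −1.15 (SE 0.42, limma adjusted p 0.446) and Muc1 at −0.69 (SE 0.22, limma adjusted p 0.376). Krt8 and Krt18, also luminal, stood at −0.15 and −0.25. Of 7 measured basal and myoepithelial markers 5 were lower, against 43.5% of all rows, and 2 higher, with Krt14 at −0.12 and Krt17 at 0.052. Myh11, named after its values were seen, was the 1 of the 7 with an unadjusted limma p below 0.05, at −0.28. Of all rows 4.14% had such a p in that direction. All 9 endothelial markers had a lower cKO mean, against 43.5% of all rows, with Pecam1 and Cdh5 at −0.28 and −0.33. An unadjusted limma p below 0.05 was found for 1 of the 9, lower in cKO, against 4.14% of all rows in that direction. In 2 of the 9, Erg and Kdr, all cKO tumors lay below all WT tumors, against 1.73% of all rows. S100a8 and S100a9 (neutrophil) stood at 0.21 and −0.012, and Krt1 and Krt10 (skin keratinocyte) at 0.0023 and 0.076, and none of these markers passed. The part of these marker scores in the differences of the genes was not tested.

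**Figure D5:**
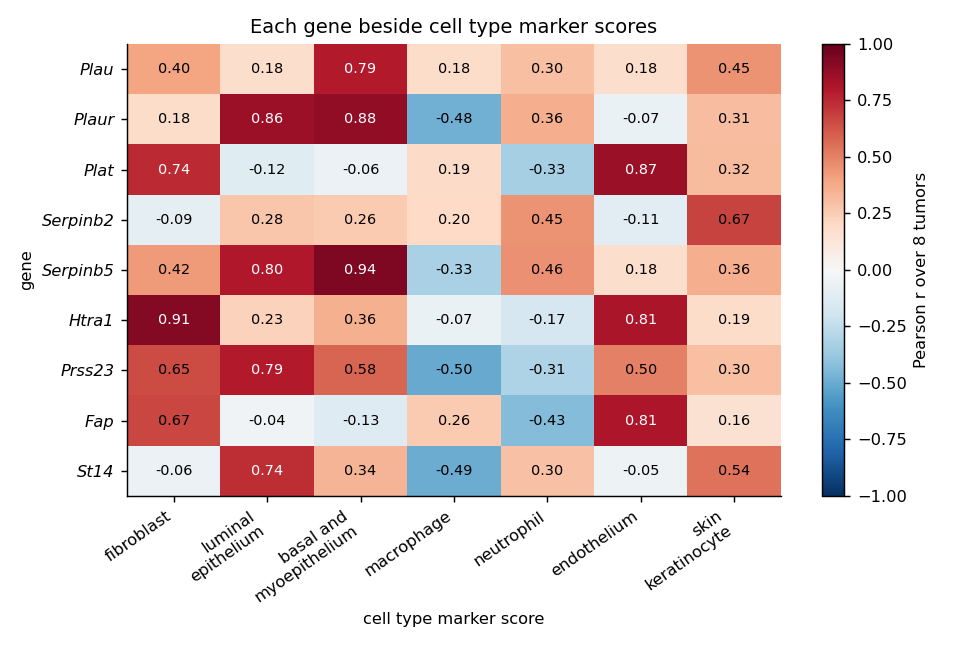
Pearson's r over 8 tumors between each of the 9 genes (rows) and 7 cell type marker scores (columns), from −1 (blue) to 1 (red). Plaur and Serpinb5 have their highest r with the basal score, Plat and Fap with the endothelial score and Htra1 with the fibroblast score.

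The genes whose pattern over the 8 tumors was most like that of each of the 9 were taken as the 2 with the highest Pearson's r among rows with a mean of at least 5. For Serpinb5 these were S100a10, which with annexin A2 forms a cell surface receptor of plasminogen (r = 0.99), and Il13ra1, a cytokine receptor chain (r = 0.99). For Plaur they were Maea and the actin-binding Tagln2 (both r = 0.99), and for Prss23 Ctla2a, which encodes a cathepsin inhibitor-like protein (r = 0.98), and Wasf2, a regulator of actin branching (r = 0.97). Htra1 was most like Prelp, a proteoglycan of connective tissue, and Tbc1d2b (both r = 0.94). Fap was most like Tspan18 (r = 0.97) and Ssr1 (r = 0.94), and Plat like Znrf3 (r = 0.96) and Gart (r = 0.95). Plau was most like Stx4a (r = 0.97) and Mtpn (r = 0.96), St14 like Hivep3 (r = 0.98) and Clasrp (r = 0.96), and the dim Serpinb2 like Zfp939 and Gna11 (both r = 0.94). These are the extremes of a search over about all bright rows of 8 tumors and carry no test.

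Other genes of the plasminogen system did not differ past the threshold. Of 16 listed genes 12 were measured, 7 with a higher and 5 with a lower cKO mean, and the median difference was 0.023, as for all rows. None had an unadjusted limma p below 0.05. The smallest p values belonged to Lrp1, the endocytic receptor that clears activator and inhibitor complexes, at −0.46 (SE 0.22, limma adjusted p 0.548), to Serpinf2, the inhibitor of plasmin, at 0.15 (SE 0.10), and to Anxa2 at −0.42 (SE 0.28). Anxa2 stood at −0.011 in arrays 1 to 4 and at −0.82 in arrays 5 to 8. Plg, the substrate of both activators and mainly a product of liver, stayed below the array median in every tumor, as did Serpinf2. The widest difference in the list, named after its values were seen, was that of Serpini1 (neuroserpin), an inhibitor of tissue-type activator, at 1.21 (SE 0.82, limma adjusted p 0.674). Its signals were 5.25, 5.51, 6.74 and 4.55 in WT and 6.83, 4.14, 8.04 and 7.88 in cKO, so that the groups overlapped.

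The list around matriptase and other membrane-anchored serine proteases had 20 of 21 genes measured, 10 higher and 10 lower, with a median of −0.021 and none past the threshold. Without adjustment 3 of the 20 had a limma p below 0.05, a share not far from the 9.68% of all rows, and they are given as values. F2r, the thrombin receptor PAR1, gave 8.05, 7.87, 7.73 and 8.31 in WT and 7.50, 7.34, 7.16 and 7.75 in cKO, where only cKO 4 overlapped WT 3. Its difference was −0.55 (SE 0.16, limma adjusted p 0.318) and of one size on both sets of arrays, −0.54 and −0.56. Tmprss2, a membrane serine protease of epithelia, stood at −0.48 (SE 0.19, limma adjusted p 0.477), with −0.075 in arrays 1 to 4 and −0.88 in arrays 5 to 8. Prss27 stood at 0.33 (SE 0.13, limma adjusted p 0.476), and at 0.19 without cKO 3.

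The remaining lists were alike in having no member past the threshold. Of 10 genes of the HtrA and dipeptidyl peptidase families, to which Htra1 and Fap are related, 6 were higher and 4 lower, with a median of 0.12. The mitochondrial protease Htra2 was higher by 0.35 (SE 0.14, limma adjusted p 0.469), the prolyl peptidase Prep stood at 0.20 and Dpp8 at −0.10. Of 8 measured clade B serpins 3 were higher and 5 lower with a median of −0.0058, and the 3 with the smallest p were Serpinb12 at 0.13, Serpinb8 at −0.40 and Serpinb6a at −0.14. Of 8 kallikrein-related peptidases 3 were higher and 5 lower, with Klk13 at 0.25, Klk6 at −0.64 and Klk7 at −0.42, the last at 0.034 without WT 1. Of 10 serine proteases of mast cell, neutrophil and cytotoxic cell granules 6 were higher and 4 lower, with a median of 0.068. Gzmb, of cytotoxic cells, stood at −0.38 (SE 0.14, limma adjusted p 0.437), Gzma at −0.22 and the mast cell tryptase Tpsab1 at 0.16. A mean signal of at least 5 was reached by 2 of the 8 serpins and 1 of the 8 kallikrein-related peptidases. Among the granule proteases 1 of 10 reached it. In every tumor Serpinb12, Klk13, Gzma and Tpsab1 lay below the array median, so their differences say little of RNA.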

How the data were processed

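Total RNA of 8 tumors was read on Affymetrix mouse gene arrays, 1 array per tumor, from 400 ng of RNA. The authors deposited log2 signals, 1 for each row and array. Per the submitters' processing notes RMA and limma were used, with versions and parameters not given in the sources used here. Changes of dim rows can be understated, and precision is limited by having 8 arrays.

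Of 41345 rows, 23521 had 1 gene symbol. Symbols were updated through gene identifiers with the RefSeq table of GRCm38.p6 (23328 rows), and the row with the highest mean stood for a gene. All 23521 rows were fitted with limma 3.58.1 in R 4.3.3 (cKO minus WT, two-sided) with Benjamini-Hochberg adjustment at 0.05, and the fit was tested on simulated data. Single values had exact two-sided permutation tests. Labels call the tumors biological replicates. The members and lists were chosen with earlier results of these data known. Named genes are the 9 members, Mmp14, the 3 smallest p per pathway list, the 2 most alike genes per member and the first 2 markers per cell type. Alternatives were rescaling, a filter at a mean of 5, other variance priors, array weights, blocks, averaged rows and leaving out each tumor. Of the 9 genes, 5 had a promoter window.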

Additional observations from a re-analysis of the deposited data

Results flagged for a closer look

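In 8 cases 1 tumor stood far from the other 3 of its group, by the gap to its nearest neighbour as a share of the group's range. The 49 genes and scores checked gave 98 groups, and chance alone flags about 1 in 20 groups. Among the 9 genes, Prss23 was at 4.92 in cKO 3, against 5.69 to 5.78 in the other cKO tumors, and the dim Serpinb2 was at 2.35 in cKO 2, against 2.19 to 2.22. Among related proteases, Prss27 was at 4.57 in cKO 3 (others 3.98 to 4.06), Klk6 at 4.77 in cKO 2 (others 3.23 to 3.37) and Klk7 at 5.35 in WT 1 (others 3.47 to 3.63). Among markers, Krt8 was at 10.66 in cKO 2 (others 10.06 to 10.11), and in WT 4 the endothelial genes Pecam1 and Cdh5 were at 6.82 (others 7.22 to 7.26) and 7.62 (others 8.39 to 8.52).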

How the results depend on the processing

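The number of rows past the threshold, 2 in the fit above, was 1 with robust hyperparameters or with the array set (1 to 4 or 5 to 8) as a block, and 0 with the replicate block, where 1898 rows had an unadjusted p below 0.05 and Mmp14 an adjusted p of 0.353 in limma. With the array set as a block that p was 0.0708. It ran from 0 to 3 with 1 tumor left out. The replicate numbers showed no clear pairing of the tumors (correlations of deviations of 0.012, −0.14, 0.24 and −0.18 for numbers 1 to 4), which does not exclude a pairing. The number of the 9 genes with an unadjusted limma p below 0.05, 1 above, was 2 with array weights (Htra1 and Prss23) and 1 to 3 with 1 tumor left out. Plaur and Serpinb5 joined Prss23 without cKO 2, Plat and Htra1 without cKO 4, and Htra1 without WT 4. The number of all 23521 rows with such a p moved too, from 2277 in the fit above to 2534 with array weights. Without cKO 2 it was 2773, without cKO 4 1921 and without WT 4 1597. Prss23 was counted in each of these fits, at −1.05 to −0.65 with 1 tumor left out, and its limma adjusted p lay between 0.167 and 0.675 over all alternatives. The median difference of the 9 ran from −0.35 to −0.14 with 1 tumor left out, and 7 in place of 8 were lower after a shift of the arrays to 1 median. The r of Plaur and Serpinb5 ran from 0.93 to 0.96, with adjusted exact p at or above 0.05 without WT 1, cKO 2 or WT 4. Klk7 ran from −0.60 without WT 3 to 0.034 without WT 1. Over rows with a mean of at least 5 the median of the matriptase list was −0.14 (9 genes) and that of the clade B serpins 0.017 (2 genes), and the granule list held 1 gene, Prtn3, at −0.032. The alternatives of that r, the interaction with the array set and the second Prss23 row were chosen after seeing the data.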
